A study of Mus musculus with 4 samples.

Results

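The genes described here encode the constitutive proteasome, meaning the subunits of its core and of its regulatory cap that are made in nearly every cell. The members were all genes of the deposited tables whose symbol is Psma, Psmb, Psmc or Psmd followed by a number, leaving out Psmb8, Psmb9 and Psmb10, which encode the catalytic subunits of the immunoproteasome. The rule gave 36 of 27998 genes. They were measured by droplet single-cell RNA sequencing, which counts unique molecular identifiers (UMIs) near the 3′ end of each transcript, in CD8+ T cells that bind the GP33 epitope of lymphocytic choriomeningitis virus (LCMV). The cells were sorted from spleens on day 8 of infection with LCMV Armstrong, which causes an acute infection, and came from 2 mice reconstituted with mixed bone marrow (chimeras).

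Each chimera gave 2 libraries, 1 of wild-type donor cells (CD45.1) and 1 of donor cells lacking Bcl-3 throughout the body (Bcl3-/-, CD45.2), an IκB family protein that acts in the nucleus on NF-κB target genes. WT1 and KO1 came from the first chimera, and WT2 and KO2 from the second. Both donors were of the C57bl/6 background, and their marrow had reconstituted sublethally irradiated Rag1-/- recipients, which make no mature T or B cells of their own but keep their other host cells. Donor genotype and CD45 allele went together in both chimeras, so their effects cannot be told apart. Barcodes with 500 or more genes and no more than 10% of UMIs from mitochondrial genes were taken as cells. WT1 held 4941 cells, WT2 8092, KO1 5366 and KO2 6494. Median UMIs per cell were 3571, 2019, 3620.5 and 2948 in that order, so WT2 was the shallowest library per cell. Pairs of libraries shared 37 to 63 cell barcodes, where independent draws would share 36.0 to 71.3.

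The labels were checked against the genes that define them. The summed level of the CD8 T cell markers found in the tables (Cd3d, Cd3e, Cd3g, Cd8a and Cd8b1) was 5648, 5393, 5971 and 6016 CPM (counts scaled to the total UMIs of the library's cells, on one common scale) in WT1, WT2, KO1 and KO2, and Cd8b1 was the most abundant of them in each library. Bcl3 itself was at 33.2, 108, 27.6 and 86.6 CPM. Bcl3 transcripts were therefore still counted in the libraries labelled Bcl3-/-, and the levels differed more between chimeras than between genotypes (log2 fold change −0.33, standard error 0.58, adjusted p = 0.837). A 3′ tag checks the label only if it lies in the deleted stretch, which the sources used here do not give, so KO1 and KO2 stand for the libraries labelled Bcl3-/- throughout. Myeloid markers summed to 2731 and 2457 CPM in WT1 and WT2 and to 3737 and 4137 CPM in KO1 and KO2, all 10 of them were detected in each library, and the most abundant was Lyz2 in the WT libraries and S100a8 in the KO libraries. B cell markers summed to 209, 214, 259 and 241 CPM, with Cd79b the most abundant in each library.

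The proteasome degrades proteins that carry ubiquitin chains. Its core is a barrel of stacked rings: the outer alpha rings (Psma genes) gate the entrance, and the inner beta rings (Psmb genes) hold the proteolytic sites, which are the caspase-like site of Psmb6, the trypsin-like site of Psmb7 and the chymotrypsin-like site of Psmb5. The regulatory cap has a base, with a ring of ATPases (Psmc genes) that unfolds substrates and non-ATPase subunits that dock them (Psmd1, Psmd2 and the ubiquitin receptor Psmd4), and a lid, in which Psmd14 removes ubiquitin. Under interferon, Psmb9, Psmb10 and Psmb8 take the places of Psmb6, Psmb7 and Psmb5 and change the peptides made for presentation, and lymphocytes carry much immunoproteasome at rest.

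Member genes lie on 16 chromosomes, and all 36 were found in the GENCODE annotation of GRCm38. The 250 bases before the RefSeq start (GRCm38.p6) are printed for 4 of them, 5′ to 3′ on the strand of the gene: Psmb6, Psma6 and Psma4, which had the lowest adjusted p between genotypes in the paired fit, and Psmd4, a subunit that ran against the others in cycling cells. The windows are chr11:70525107-70525356 (+), chr12:55383972-55384221 (+), chr9:54950609-54950858 (+) and chr3:95042615-95042864 (−). Capitals mark the letters of the motifs searched.
Psmb6: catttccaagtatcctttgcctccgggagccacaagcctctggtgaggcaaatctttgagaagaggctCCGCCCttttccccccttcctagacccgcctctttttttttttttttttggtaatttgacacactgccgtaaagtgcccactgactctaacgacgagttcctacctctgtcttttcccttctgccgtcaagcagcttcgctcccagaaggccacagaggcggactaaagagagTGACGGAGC
Psma6: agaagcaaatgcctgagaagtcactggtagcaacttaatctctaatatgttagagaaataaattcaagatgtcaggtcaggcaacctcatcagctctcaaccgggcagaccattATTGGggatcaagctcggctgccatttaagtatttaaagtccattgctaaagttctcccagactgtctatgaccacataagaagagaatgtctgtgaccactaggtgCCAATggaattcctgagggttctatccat
Psma4: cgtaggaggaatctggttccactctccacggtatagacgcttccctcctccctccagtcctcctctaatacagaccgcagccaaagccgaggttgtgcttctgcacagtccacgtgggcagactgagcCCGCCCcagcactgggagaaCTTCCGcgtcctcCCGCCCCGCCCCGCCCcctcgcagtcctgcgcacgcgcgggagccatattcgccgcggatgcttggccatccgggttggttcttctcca
Psmd4: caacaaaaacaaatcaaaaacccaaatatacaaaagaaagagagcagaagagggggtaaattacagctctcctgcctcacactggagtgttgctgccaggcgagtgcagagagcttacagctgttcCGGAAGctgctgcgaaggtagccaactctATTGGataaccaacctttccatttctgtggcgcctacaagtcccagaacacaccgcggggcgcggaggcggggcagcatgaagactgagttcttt
The motifs, read on both strands, were the antioxidant response element core TGACNNNGC, the CCAAT box, the GC box GGGCGG, the ETS core CGGAAG and the NF-κB consensus, and matches of one motif may overlap one another. The capitals of Psmb6 are a GC box and an antioxidant response element core, those of Psma6 are 2 CCAAT boxes, those of Psma4 are 4 GC boxes and an ETS core, and those of Psmd4 are an ETS core and a CCAAT box. Of the 29 members with such a window, 15 held the ETS core (51.7%, against 13.8% of 27025 windows of the same length) and 17 the GC box (58.6% against 32.9%). The CCAAT box was in 12 (41.4% against 34.5%), the antioxidant response element core in 5 (17.2% against 10.1%) and the NF-κB consensus in 4 (13.8% against 7.01%). These letters are a description of the windows and not of binding.

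Subunit transcripts made up 0.711%, 0.754%, 0.633% and 0.664% of the UMIs in the cells of WT1, WT2, KO1 and KO2. The WT libraries were thus both above the KO libraries. A median cell held 25, 15, 23 and 19 member UMIs in the same order. Barcodes with 1 to 99 UMIs, which are mostly droplets without a cell, gave member shares of 0.722%, 0.712%, 0.680% and 0.712%, so free RNA held the members at about the level of the cells. Of the 36 members, 34 passed the filter on low counts. The exceptions were Psmb11, which encodes the catalytic subunit of the thymic cortex proteasome and had 2 UMIs, both in WT2, and Psma8, the testis form of an alpha subunit, which had 1, 2, 5 and 7 UMIs. The other 34 ranged from a mean of 38.7 CPM for Psmd5, a chaperone that assembles the cap, to 695 CPM for Psmb1, a beta subunit without a proteolytic site, with a median of 151 CPM. These levels come from 3′ tags and are not scaled to transcript length or to how well a 3′ end is captured, so their order is not read as an order of expression.

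**Figure D1:**
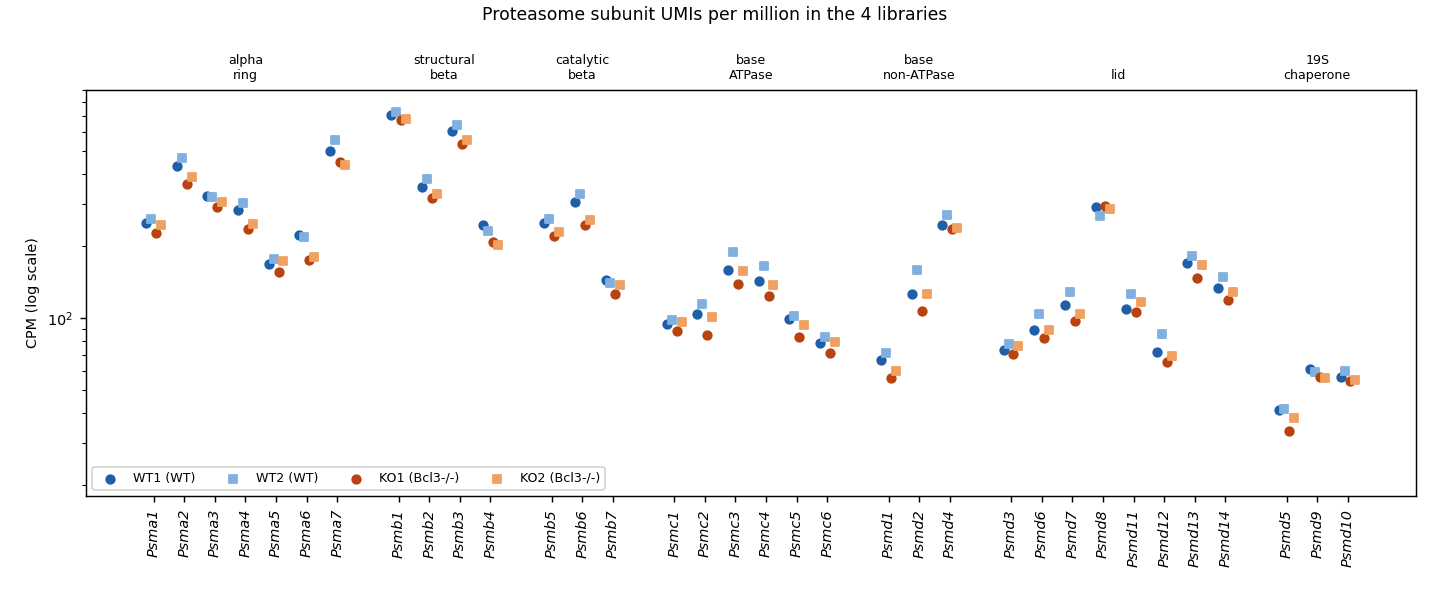
CPM of the 34 members tested (log axis) in each of the 4 libraries, ordered by role; circles are the first chimera, squares the second, blue WT and orange the libraries labelled Bcl3-/-. The levels run from 38.7 CPM for Psmd5 to 695 CPM for Psmb1 (means of 4 libraries), and within most members the orange points lie under the blue ones.

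Some members share sequence with other genes where the tags fall. In 27 members no 98-base stretch (the length of the sequenced read) of the last 400 transcript bases was found in a transcript of another gene. In 6 more than 5% of these stretches were shared: Psmb5 (38.7%, with Gm3375), Psma3 (17.98%), Psma5 (11.7%), Psmd1 (9.74%), Psma4 (6.48%) and Psmd11 (5.58%). The counts of these genes are less certain, and 8 members overlap another gene on the same strand.

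Nearly every subunit took a slightly smaller share of UMIs in the Bcl3-/- library than in the WT library of the same mouse. Without the chimera in the fit, edgeR called none of them and DESeq2 called Psmb6. In both chimeras the KO library was below its WT partner for 33 of 34 members, with a median log2 CPM ratio of −0.17 in the first and −0.19 in the second (−0.01 and 0.04 over all 11566 genes tested, of which 5926 and 5044 were below). The exception was Psmd8, a lid subunit (291, 267, 293 and 285 CPM in WT1, WT2, KO1 and KO2). Both KO libraries were below both WT libraries for 28 of 34 members, a pattern seen in 18.8% of all genes tested. The groups overlapped for Psma5, Psmc1, Psmc6, Psmd3, Psmd8 and Psmd11.

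By the quasi-likelihood test of edgeR, with p-values adjusted after Benjamini and Hochberg over all genes, 33 genes were higher and 9 lower in the Bcl3-/- libraries (0.0778% of genes tested were lower), and none of either was a member. At an unadjusted p under 0.05, 16 of 34 members were lower, against 7.15% of all genes, and none was higher. DESeq2 called 1 member, Psmb6. The median log2 fold change of the members was −0.20, beside 0.01 for all genes tested. With the chimera as a replicate block, which compares each KO library with the WT library of its own mouse, 556 genes were higher and 560 lower (4.84%), and 12 of 34 members fell while none rose. These were 4 of 7 alpha subunits, 3 of 6 ATPases, 2 of 3 other base subunits, 1 of 4 structural beta subunits, 1 of 3 catalytic beta subunits, 1 of 8 lid subunits and 0 of 3 cap chaperones. DESeq2 with the same block called 1 member, so the count of 12 rests on edgeR. The edgeR fit with the block left 1 residual degree of freedom, so its p-values lean on variance information shared across genes.

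Among the catalytic subunits, Psmb6 (chr11:70525367-70527858, + strand) was at 304 and 331 CPM in WT1 and WT2 and at 244 and 256 CPM in KO1 and KO2. The groups did not overlap, and each KO library was below its partner by a similar log2 ratio (−0.32 and −0.37). The log2 fold change was −0.36 (standard error 0.09, adjusted p = 0.151), or −0.36 with the block (standard error 0.067, adjusted p = 0.00403). Psmb5 (chr14:54614119-54618022, − strand) was at 250, 258, 219 and 228 CPM in WT1, WT2, KO1 and KO2 (log2 fold change −0.20, standard error 0.09, adjusted p = 0.3304, or 0.0716 with the block). Psmb7 (chr2:38588036-38644087, − strand) was at 144, 140, 126 and 138 CPM, with KO2 just under WT2 (log2 fold change −0.12, standard error 0.09, adjusted p = 0.540, or 0.297 with the block). Of the 3 catalytic subunit genes, Psmb6 alone passed the paired test, and the 3 were not tested against one another.

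In the alpha ring, Psma6 (chr12:55384222-55418454, + strand) was at 223 and 219 CPM in the WT libraries and at 175 and 181 CPM in the KO libraries. The log2 fold change was −0.33 (standard error 0.09, adjusted p = 0.172, or 0.0062 with the block). Psma4 (chr9:54950790-54958030, + strand) was at 282, 304, 236 and 246 CPM in WT1, WT2, KO1 and KO2 (log2 fold change −0.30, adjusted p = 0.215, or 0.0127 with the block). Psma2 and Psma7 were the other alpha subunits called with the block, at adjusted p of 0.0213 and 0.0404. The alpha ring had a median log2 fold change of −0.26, with all 7 tested members negative.

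In the cap, Psmd2, a scaffold of the base that receives substrates, was at 127, 159, 107 and 126 CPM in WT1, WT2, KO1 and KO2. KO2 was level with WT1, and both chimeras showed the lower value in the KO library (log2 fold change −0.31, standard error 0.12, adjusted p = 0.275, or 0.0132 with the block). Psmd1, its partner in the base, was also called with the block (adjusted p = 0.0383), as were the ATPases Psmc2, Psmc3 and Psmc4 (0.0286, 0.0388 and 0.0317) and the lid subunit Psmd7 (0.0227). Psmb4 was the structural beta subunit called (0.0366). The 3 highest log2 fold changes were those of Psmd8 (0.03, standard error 0.11, adjusted p = 0.910), Psmd3 (−0.06, standard error 0.08, adjusted p = 0.753) and Psmc1 (−0.08, standard error 0.08, adjusted p = 0.697), the last of which was at 94.7, 98.5, 88.7 and 96.4 CPM.

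**Figure D2:**
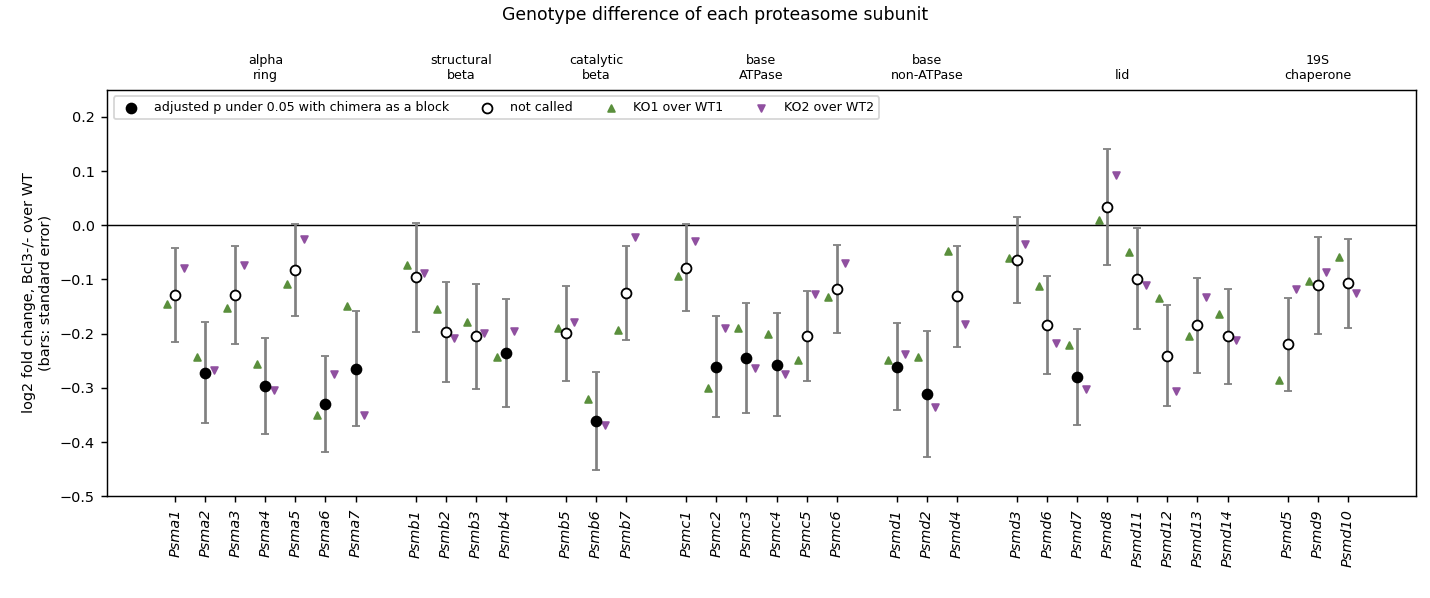
Log2 fold change of each member between the Bcl3-/- and WT libraries with its standard error (circles and bars, fit without the block; filled where the fit with the chimera as a block gave an adjusted p under 0.05), and the log2 CPM ratio within each chimera (triangles). Psmb6 is lowest at −0.36, 12 members are filled, and Psmd8 alone lies above 0.

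The summed share of the members was 0.733% ± 0.031 (SD, n = 2) in the WT libraries and 0.649% ± 0.022 in the KO libraries, a difference of −0.0839 percentage points. An exact permutation test gave a 2-sided p of 0.333, the smallest that 2 against 2 libraries can reach. Cell composition moved with genotype: T cells with 2 or more UMIs of cell cycle genes per 1000 were 21.4% and 21.6% in the WT libraries and 15.5% and 17.8% in the KO libraries, T cells with 3 or more UMIs of terminal effector genes were 12.1% and 14.97% against 20.6% and 21.3%, and the myeloid markers given above were higher in the KO libraries. Within the T cells with cell cycle genes the difference in share was −0.0823 points, in the other T cells −0.0732, and in T cell clusters only −0.0811. In T cells with those terminal effector genes the share was 0.703% and 0.730% in the WT libraries against 0.626% and 0.639% in the KO libraries. In the other T cells it was 0.721% and 0.760% against 0.646% and 0.678%. The part of the terminal effector cells in the difference was not tested. Leaving out 1 library at a time gave −0.106 to −0.0621.

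Genes that work with these subunits were followed as 6 lists, of which 39 genes were tested. None was called between genotypes without the block. With it, 1 was higher and 8 were lower, beside 556 genes higher and 560 lower (4.84%) of all 11566 tested. Among the immunoproteasome genes Psmb10 fell (414, 455, 346 and 353 CPM in WT1, WT2, KO1 and KO2, log2 fold change −0.33, adjusted p = 0.0090), while Psmb8 (−0.24, adjusted p = 0.0515) and Psmb9 (−0.06, adjusted p = 0.655) were not called. The activators Psme2 and Psme1, which together form the PA28 ring that opens the core, fell (−0.28 and −0.24, adjusted p = 0.0201 and 0.0426). So did the ubiquitin receptor Adrm1 (−0.29, adjusted p = 0.0364), the unfoldase Vcp (−0.24, adjusted p = 0.0317) and the ubiquitin gene Ubb (−0.36, adjusted p = 0.0214). Of the 98-base stretches in the last 400 bases of Ubb, 72.3% are shared with other transcripts, as are 36.8% in Rps27a, 33.3% in Vcp, 22.1% in Adrm1 and 21.3% in Psme2, so the counts of these genes are uncertain. None of 5 assembly chaperones and none of 6 genes for transcription and activation of the proteasome genes was called.

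The T cells were next divided by what else they expressed. Each cell was thinned to 1000 UMIs, and T cells were gated on a list of genes that held no member: 36 cell cycle genes, 10 memory genes, 6 terminal effector genes and 10 interferon-stimulated genes. A gate held the cells with at least 2 UMIs of its list (3 for the terminal effector list), and a cell could enter several gates. Cells with markers of B, plasma, myeloid or erythroid cells were left out first (657, 668, 893 and 760 cells in WT1, WT2, KO1 and KO2), and the remaining cells of the sort, with no T cell marker required of them, are called T cells here. Counts were then summed inside and outside the gate in each library, and the 8 sums were compared with the library as a block. Each fit left 3 residual degrees of freedom and used variance information shared across genes, and the 4 libraries came from 2 mice. A low p-value therefore does not mean that all libraries agreed. Ubb, for example, was called in the terminal effector gate with 3 libraries higher and 1 lower inside by CPM.

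Most subunits took a larger share of UMIs in cycling cells. The gate took 910, 1557, 691 and 1016 T cells in WT1, WT2, KO1 and KO2, and the members made up 0.785%, 0.821%, 0.716% and 0.725% of UMIs inside it against 0.693%, 0.732%, 0.624% and 0.654% outside. The share was higher inside in every library. In edgeR's quasi-likelihood test 26 of 34 members rose and 2 fell, while 21.1% of the 10242 genes tested were higher and 20.7% lower. The median log2 fold change was 0.17 for the members and −0.02 for all genes, and 29 members were higher inside the gate in all 4 libraries, as were 28.3% of all genes. At a threshold 1 UMI lower the median of the members was 0.073, and 18 of them rose. By role, 6 of 6 ATPases, 3 of 3 catalytic beta subunits, 6 of 7 alpha subunits, 6 of 8 lid subunits, 3 of 4 structural beta subunits and 2 of 3 other base subunits rose, and 0 of 3 cap chaperones.

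Psmb6 had the lowest adjusted p of the members. It was at 379 CPM inside and 277 CPM outside the gate in WT1, 383 and 300 CPM in WT2, 292 and 229 CPM in KO1, and 309 and 237 CPM in KO2 (log2 fold change 0.35, standard error 0.030, adjusted p = 1.7e-11). Every library showed the higher level inside, and the cycling KO cells were about level with the other WT cells. Psmb7 rose by 0.31 (standard error 0.038, adjusted p = 4.2e-08) and Psmb5 by 0.18 (standard error 0.032, adjusted p = 2.7e-05). The largest fold changes were those of Psmd1, the base scaffold (0.39, standard error 0.050, adjusted p = 1.2e-07), the ATPase Psmc1 (0.37, standard error 0.042, adjusted p = 9.8e-09) and Psmb6. Psma4 (0.26, adjusted p = 9.7e-09) was among the lowest in adjusted p.

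The subunits that ran the other way were Psmb1, a structural beta subunit, and Psmd4, the ubiquitin receptor. Psmb1 was at 690 CPM inside against 730 CPM outside in WT1, 709 against 752 CPM in WT2, 656 against 689 CPM in KO1 and 652 against 706 CPM in KO2 (log2 fold change −0.12, standard error 0.023, adjusted p = 4.7e-05). Psmd4 was at 233 against 258 CPM in WT1, 250 against 281 CPM in WT2, 227 against 249 CPM in KO1 and 229 against 248 CPM in KO2 (−0.18, standard error 0.030, adjusted p = 1.2e-05). Both were lower inside in all 4 libraries and stayed lower when counts were scaled to library totals. The lid subunit Psmd8 (0.02, adjusted p = 0.706) and the cap chaperones Psmd9 and Psmd10 (0.04 and 0.05) were the members nearest to 0.

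Of the 39 pathway genes, 9 rose and 7 fell in the cycling gate, which is near the 21.1% and 20.7% of all genes. The deubiquitinases that sit on the cap rose most, Uchl5 by 0.65 (adjusted p = 7.0e-11) and Usp14 by 0.41 (adjusted p = 7.75e-06), and the receptor that anchors Uchl5, Adrm1, also rose. Psmb9 rose by 0.20 (adjusted p = 1.7e-06), whereas Psmb8 (0.02, adjusted p = 0.490) and Psmb10 (−0.04, adjusted p = 0.303) were not called. The activator Psme3, a nuclear one, rose by 0.19 (adjusted p = 0.0014), and Psme1 fell by 0.18 (adjusted p = 2.9e-07). Pomp and Psmg2, which assemble the core, rose by 0.12 and 0.32 (adjusted p = 0.00038 and 0.00084), and Psmg4 fell. Ubb fell, Faf1 and Vcp rose, and of the activation list Nfe2l2 (−0.33, adjusted p = 0.0024) and Ngly1 (−0.14, adjusted p = 0.0322) fell. The transcription factor Nfe2l1, known for the recovery of proteasome genes after inhibition, was between 6.22 and 12.5 CPM in these sums and was not called (−0.20, adjusted p = 0.272).

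The gate is a range and not a type: 1543 of 4259 T cells in WT1, 2736 of 7201 in WT2, 1521 of 4458 in KO1 and 2093 of 5715 in KO2 lay within 1 UMI of its threshold, and gated cells had more UMIs (a median of 4346.5 against 3431 in WT1). Without the block 5 of 34 members rose and 0 fell, beside 1195 genes higher and 605 lower of 10242 tested. Whether the genotype difference depends on cycling was tested by the interaction of gate and genotype. No member was called (0.00976% of genes were), none had an unadjusted p under 0.05 (5.5% of genes did), and DESeq2 called 0. The interaction ran from −0.16 for Psmc6 to 0.16 for Psmc2 on the log2 scale (median standard error 0.069, lowest adjusted p = 0.888).

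Some subunits took a smaller share of UMIs in cells with memory genes. The gate took 504, 713, 405 and 563 cells in WT1, WT2, KO1 and KO2, and the member share inside was 0.655%, 0.703%, 0.614% and 0.635% against 0.726%, 0.761%, 0.645% and 0.673% outside. It was lower inside in every library, and the gap was widest in WT1. In edgeR's quasi-likelihood test 10 of 34 members fell and 0 rose, against 4.93% lower and 4.84% higher of all 10226 genes tested, with a median log2 fold change of −0.10 beside 0.01. Of these 4 of 8 were lid subunits, 2 of 3 catalytic, 2 of 7 alpha, 1 of 4 structural beta and 1 of 6 ATPases. Of the catalytic subunits Psmb7 and Psmb5 fell. Psmb7 was at 128 against 148 CPM in WT1, 125 against 140 CPM in WT2, 115 against 130 CPM in KO1 and 113 against 142 CPM in KO2 (log2 fold change −0.21, standard error 0.054, adjusted p = 0.0037), and for Psmb5 it was −0.15 (standard error 0.044, adjusted p = 0.0138). Psmb6 was at −0.07 (standard error 0.039, adjusted p = 0.311).

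Psmb3, a structural beta subunit, had the lowest adjusted p in the memory gate (−0.16, standard error 0.030, adjusted p = 8.9e-05). Its level was 536 against 626 CPM in WT1, 573 against 664 CPM in WT2, 528 against 551 CPM in KO1 and 528 against 579 CPM in KO2, lower inside in every library and by more in the WT libraries. Psmd8 fell by 0.16 (standard error 0.040, adjusted p = 0.0034). The lowest fold changes besides Psmb7 were Psmd12 (−0.25, standard error 0.075, adjusted p = 0.0158) and Psmd14, the deubiquitinase of the lid (−0.22, standard error 0.056, adjusted p = 0.0044). The highest were Psmd5 (0.11, standard error 0.095, adjusted p = 0.598), Psma6 (0.05, standard error 0.044, adjusted p = 0.599) and Psmc5 (0.01, standard error 0.066, adjusted p = 0.966). Rps27a, which encodes ubiquitin fused to a ribosomal protein, rose by 0.21 (adjusted p = 2.1e-13), and the ubiquitin-activating enzyme Uba1 and the assembly factor Pomp fell by 0.17 and 0.10 (adjusted p = 0.0149 and 0.0466). No immunoproteasome gene was called. The count of 10 changed with the fit: 0 members fell without the block, 1 in DESeq2, 4 without WT replicate 1, and 6 without WT replicate 2 or Bcl3-/- replicate 2. The median of the members was −0.17 at a threshold 1 UMI higher and −0.066 at 1 UMI lower.

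In terminal effector cells 1 constitutive subunit was called, while the immunoproteasome genes took a smaller share of UMIs. The gate took 514 and 1078 cells in WT1 and WT2 and 919 and 1220 in KO1 and KO2. Members made up 0.703%, 0.730%, 0.626% and 0.639% of UMIs inside in WT1, WT2, KO1 and KO2, against 0.721%, 0.760%, 0.646% and 0.678% outside. In edgeR's quasi-likelihood test 1 of 34 members fell, Psma2 (−0.09, standard error 0.029, adjusted p = 0.0336), and 0 rose, beside 7.39% of 10261 genes lower and 7.74% higher. DESeq2 called 0 members. At an unadjusted p under 0.05, 4 members were higher and 5 lower, against 25.7% of all genes in either direction, so the members were near the background. Scaled to library totals 9 members fell, beside 1218 of 10261 genes lower, and the split of all calls moved from 51.2% to 31.4% higher. Psmb5, Psmb6 and Psmb7 were at 0.00, 0.01 and 0.04 (standard errors 0.034, 0.033 and 0.046), and all were below 0 when scaled to library totals. The 3 highest were Psmd9 (0.16, standard error 0.062, adjusted p = 0.0703), Psmd2 (0.10) and Psmd10 (0.10), and the lowest besides Psma2 were Psmd7 (−0.11) and Psma5 (−0.09).

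All 3 immunoproteasome genes fell in the terminal effector gate. Psmb8 was at 1317 against 1456 CPM in WT1, 1331 against 1593 CPM in WT2, 1037 against 1287 CPM in KO1 and 1085 against 1366 CPM in KO2 (log2 fold change −0.22, standard error 0.022, adjusted p = 6.45e-11). It was lower inside in all 4 libraries. Psmb10 and Psmb9 fell by 0.17 and 0.18 (adjusted p = 1.6e-05 and 2.1e-05), and Psme2 and Psme1 by 0.23 and 0.19 (adjusted p = 1.1e-09 and 5.25e-08). Psmg4, Pomp, the small lid subunit Shfm1 and Rps27a also fell, with adjusted p of 0.0046, 0.0079, 0.0216 and 1.1e-05. Nfe2l2, the transcription factor of the antioxidant response, rose by 0.48 (adjusted p = 5.9e-05), and Ubb rose by 0.08 (adjusted p = 0.0010). In all, 3 of 39 pathway genes rose and 9 fell, beside 7.74% of all genes higher and 7.39% lower.

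Interferon-stimulated cells showed the reverse in the immunoproteasome, and no constitutive subunit was called. The gate took 338, 874, 278 and 450 cells in WT1, WT2, KO1 and KO2. Members made up 0.723%, 0.739%, 0.639% and 0.671% of UMIs inside and 0.718%, 0.758%, 0.642% and 0.670% outside. None of 34 was called by edgeR or DESeq2, while 3.45% of 10180 genes were higher and 1.14% lower in edgeR. At an unadjusted p under 0.05, 2 were higher and 2 lower, against 12.9% of all genes in either direction, again near the background. The lowest were Psmd1 (−0.27, standard error 0.085, adjusted p = 0.0565), Psmd12 (−0.16, standard error 0.079) and Psmd5 (−0.06, standard error 0.102), and the highest Psma3 (0.09), Psma5 (0.08) and Psma2 (0.08). Psmb5, Psmb6 and Psmb7 were at −0.04, −0.03 and 0.04.

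By contrast, 5 of 39 pathway genes rose and none fell in the interferon gate, beside 3.45% of all genes higher and 1.14% lower. The 5 were the immunoproteasome and PA28. Psmb8 was at 1695 against 1419 CPM in WT1, 1753 against 1528 CPM in WT2, 1428 against 1226 CPM in KO1 and 1491 against 1292 CPM in KO2 (0.25, standard error 0.019, adjusted p = 1.2e-14). The level inside was the higher in every library. Psmb10 rose by 0.37 (adjusted p = 8.5e-13), Psmb9 by 0.29 (adjusted p = 2.4e-09), Psme1 by 0.24 (adjusted p = 9.6e-10) and Psme2 by 0.21 (adjusted p = 5.5e-08). Scaled to library totals, the split of all calls moved from 75.2% to 61.3% higher.

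**Figure D3:**
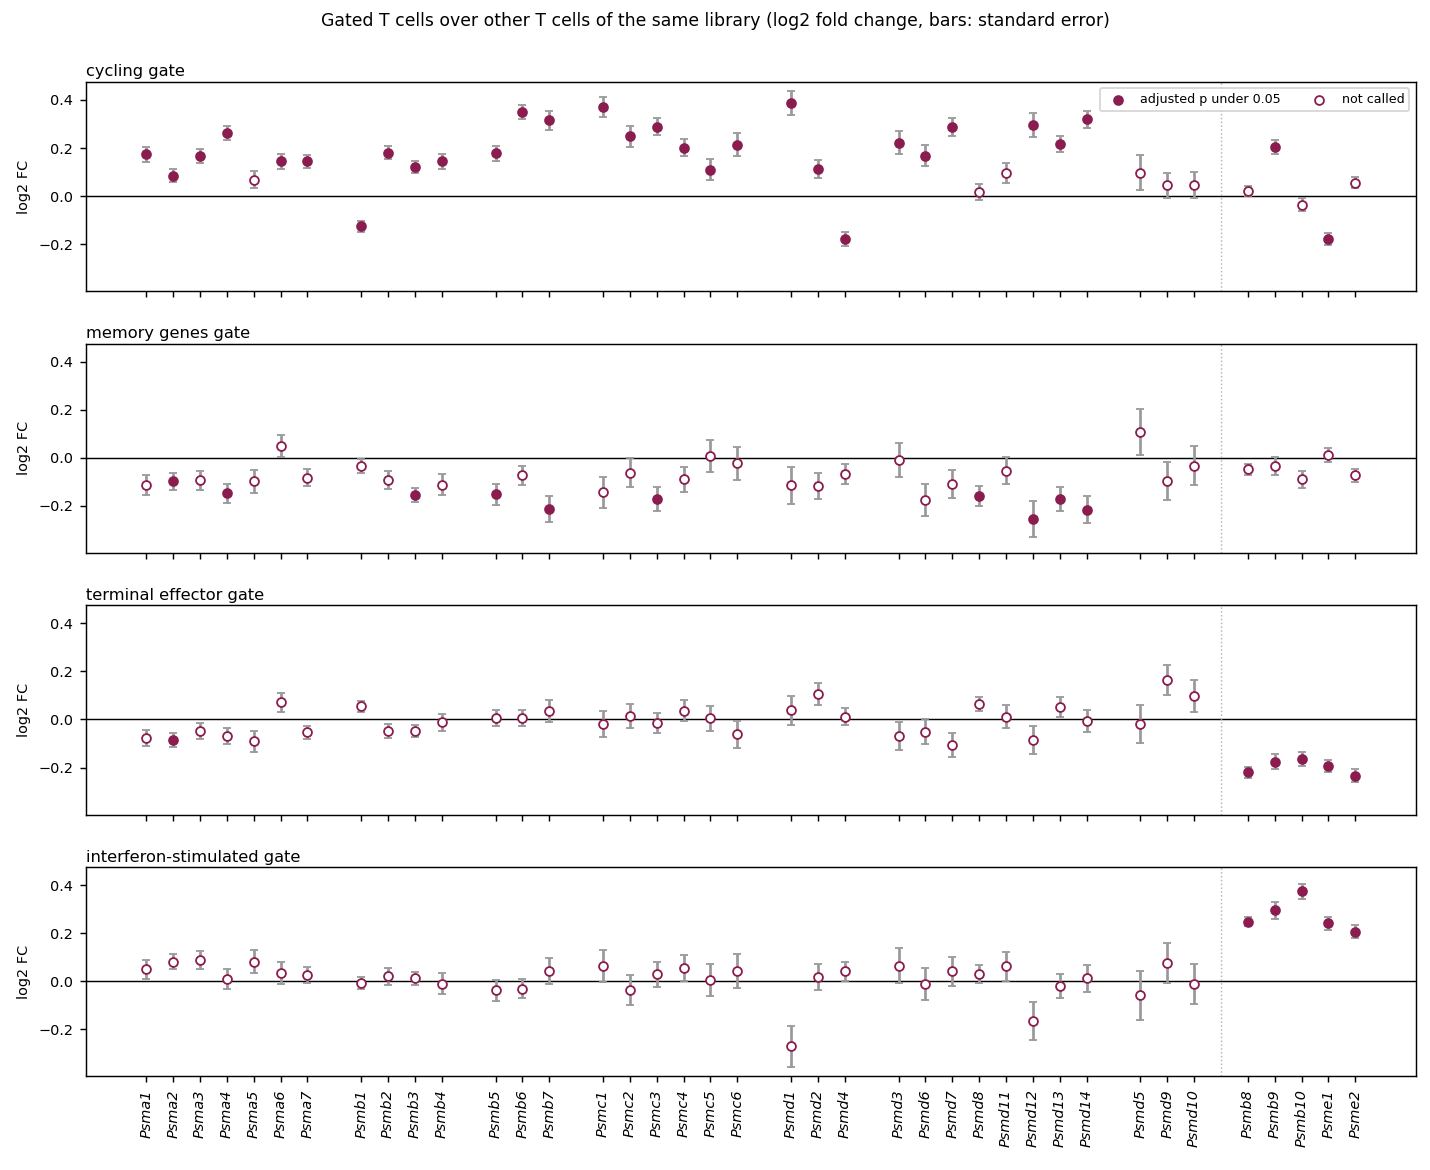
Log2 fold change, with its standard error, of each member and of Psmb8, Psmb9, Psmb10, Psme1 and Psme2 (right of the dotted line) between gated and other T cells of the same library, for 4 gates; filled points had an adjusted p under 0.05. Most members are above 0 in the cycling gate, 10 filled members are below 0 in the memory gate, and in the lower panels the filled points are almost all right of the line, below 0 in the terminal effector gate and above 0 in the interferon gate.

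The balance of catalytic genes was followed as the UMIs of Psmb8, Psmb9 and Psmb10 per UMI of Psmb5, Psmb6 and Psmb7. Because tags of different genes are not on one scale, the ratio is read only between samples. Over all cells it was 3.16 and 3.21 in WT1 and WT2 and 3.23 and 3.24 in KO1 and KO2, a log2 difference of 0.02 (exact permutation test, 2-sided p = 0.333) that was −0.05 in T cells outside the cycling gate. Pair by pair the subunits behaved differently. Psmb9 per Psmb6 was 1.17 and 1.01 in the WT libraries and 1.31 and 1.37 in the KO libraries (log2 difference 0.30), and Psmb10 per Psmb7 was 2.87 and 3.26 against 2.74 and 2.56 (−0.21). The groups did not overlap in either pair, in opposite directions, but for Psmb10 per Psmb7 they overlapped in cells thinned to 1000 UMIs (2.74 and 3.58 against 2.90 and 2.47), inside the cycling gate (2.29 and 2.80 against 2.16 and 2.36) and inside the interferon gate (3.59 and 4.37 against 3.64 and 2.68). Over all cells the exact permutation test gave its smallest p of 0.333 for each. Psmb8 per Psmb5 was 5.74, 5.99, 5.65 and 5.74 in WT1, WT2, KO1 and KO2 (−0.04, exact p = 0.667). With these 4 ratios as one family, no p could pass adjustment.

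The ratio moved the same way in every library in the cycling, terminal effector and interferon gates, but not in the memory gate. In the cycling gate it was 2.70, 2.86, 2.86 and 3.01 in WT1, WT2, KO1 and KO2, against 3.38, 3.47, 3.31 and 3.31 in other T cells. In the terminal effector gate it was 2.89, 2.92, 2.81 and 2.76 against 3.19, 3.34, 3.29 and 3.36. In the interferon gate it was 3.94, 3.99, 3.88 and 3.70 against 3.09, 3.19, 3.16 and 3.20. Inside and outside did not overlap in any of these gates. In the memory gate it was 3.42, 3.49, 3.34 and 3.23 against 3.13, 3.26, 3.19 and 3.23, with no difference in KO2.

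Clusters, found in each library without the members and pathway genes among the variable genes, are given as a description. Clusters were named from marker lists, and those with no list were the most common, at 51.2%, 54.9%, 51.2% and 53.6% of cells in WT1, WT2, KO1 and KO2. The effector list (Gzmb, Prf1, Cxcr6, Id2, Ifng and Prdm1) was not used for naming, so clusters with no list can hold effector cells. Members made up 0.820%, 0.881%, 0.762% and 0.775% of UMIs in the cycling-like clusters of WT1, WT2, KO1 and KO2, and 0.697%, 0.742%, 0.625% and 0.652% in clusters with no list. The clusters with no list include some with Tcf7, Il7r or Bcl2 of the memory list among their 10 leading genes, 1 in each of WT1, KO1 and KO2, with shares of 0.625%, 0.566% and 0.587%, so they are not free of cells with memory genes. Terminal effector-like clusters held 0.634%, 0.676%, 0.602% and 0.618%, and memory-like clusters 0.646%, 0.675%, 0.593% and 0.601%. By cluster, the terminal effector-like cells were thus about as low as the memory-like ones. By gate the 2 were also close in the KO libraries, while in the WT libraries the memory gate was the lower. The clusters and the gates hold different cells: 13.1% to 31.9% of the cells of the memory gate were in memory-like clusters, and 45.9% to 66.8% of those of the terminal effector gate in terminal effector-like ones. The memory-like clusters also led with naive T cell genes, several of which stand on both lists, and that of KO1 had Cd4 among its leading genes. Interferon-stimulated-like clusters held 0.673%, 0.697%, 0.632% and 0.652%. In each library the cycling-like clusters had the highest share of these T cell classes.

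The other cells captured had their own levels. B cell-like clusters held 0.565%, 0.609%, 0.488% and 0.511% of UMIs in the members in WT1, WT2, KO1 and KO2, lower than any T cell class of the same library. Myeloid-like clusters held 0.640%, 0.802%, 0.537% and 0.635%, and in the KO libraries 1 of the 2 such clusters led with S100a8, S100a9 and Retnlg, genes of neutrophils, and had shares of 0.362% and 0.346%. The like clusters of WT1 and WT2 (0.385% and 0.426%) held under 1% of their libraries and are not in the myeloid-like class, so its values compare unlike cells. In the clusters led by Lyz2 the shares were 0.640%, 0.802%, 0.593% and 0.703%, and KO2 was above WT1. Both KO libraries were below both WT libraries in the T cell classes named here and in the B cell-like clusters. The catalytic ratio was highest in the interferon-stimulated-like clusters (4.80, 4.59, 4.46 and 4.52) and lowest among the T cell classes in the cycling-like clusters (2.62, 2.57, 2.64 and 2.85). In KO2 the terminal effector-like cluster was close, at 2.88.

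**Figure D4:**
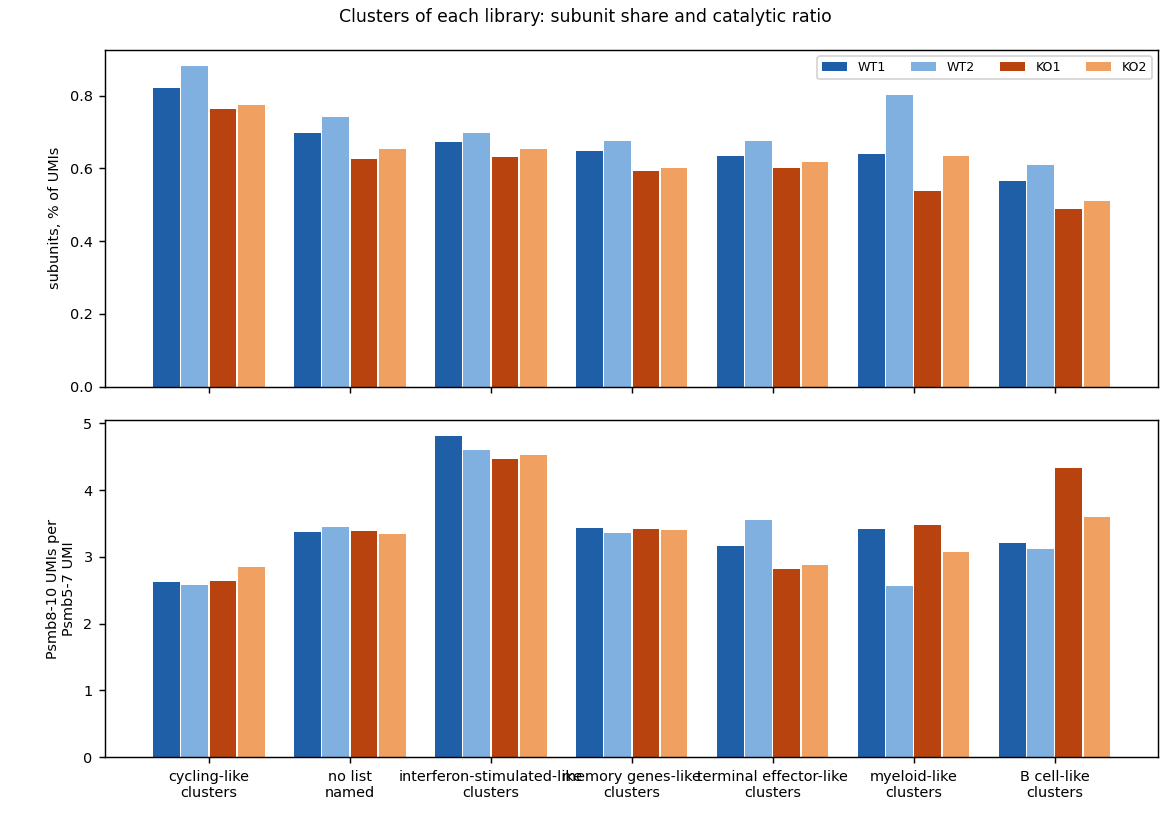
Share of UMIs in the 36 members (upper panel, percent) and UMIs of Psmb8, Psmb9 and Psmb10 per UMI of Psmb5, Psmb6 and Psmb7 (lower panel) in the clusters of each class, 1 bar per library. The myeloid-like bars of the KO libraries include neutrophil gene clusters that those of the WT libraries do not. Cycling-like clusters have the highest share of the T cell classes (0.762% to 0.881%), and interferon-stimulated-like ones the highest ratio (4.46 to 4.80).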

How the data were processed

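For each library the authors deposited unnormalized UMI counts of genes by barcodes, made with Cell Ranger 2.2.0 (bcl2fastq 2.17 and mm10 per the labels) from 10x 3′ v2 libraries; the gene annotation used for counting is not given in the sources used here. Total UMIs were 21193300, 20358780, 22922219 and 22672343 in WT1, WT2, KO1 and KO2, of which the members had 143509, 144960, 138079 and 142962 in cells. Barcodes with 500 or more genes and no more than 10% of UMIs from mitochondrial genes were kept, with genes seen in at least 2 cells, as in the study's methods. No doublet caller was run; cells with 3 or more thinned UMIs of B cell, plasma cell, myeloid and erythroid markers were left out of the gates, and clusters that held under 1% of a library were not used. Plasma cell markers summed to 1015, 1128, 861 and 1147 CPM (Jchain highest) and erythroid markers to 60.3, 94.8, 9.35 and 218 CPM. The CD4 T list named no further class. Clusters matching the naive T list best were to be classed as memory-like, and the effector list was not used for naming.

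UMIs were summed per library, or per library and gate, and tested with edgeR 4.0.16 (quasi-likelihood test, TMM, filterByExpr, Benjamini-Hochberg at 0.05 over all genes) in R 4.3.3, with DESeq2 1.42.0 as an alternative. Clusters came from Seurat 5.3.0 (15 principal components, resolution 0.8) and are a description. Gate thresholds were the smallest UMI number that at most 20% of T cells of the 4 libraries pooled reached (15% for memory and interferon-stimulated genes), so single libraries could exceed it. The labels place WT1 with KO1 and WT2 with KO2 in the same mouse, and their deviations from the genotype means went together (r = 0.253 across 6863 genes, which are not independent), so the fit with the chimera as a replicate block is printed beside the fit without it. The scripts were tested on simulated data.

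The members and lists were chosen with earlier results of these data known. All members are described by role, with full statistics for Psmb5, Psmb6, Psmb7, the called members of lowest adjusted p and the 3 highest and lowest fold changes, and called pathway genes by list; a few pathway genes that enter the counts are not reported here by name. Promoters are RefSeq's, the first window listed per gene. Shared 3′ stretches were counted in GENCODE vM21 transcripts.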

Additional observations from a re-analysis of the deposited data

Results flagged for a closer look

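In 9 cases the difference between gated and other T cells had one sign in both WT libraries and the other sign in both Bcl3-/- libraries. These differences between genotypes were not tested, each rests on 2 libraries a genotype, and they were found among 34 members in 4 gates, or 6.62% of 136 cases, beside 8.86% over all genes tested, a share not above that of all genes. In the memory gate Psmc5, an ATPase of the base, had log2 ratios of −0.14 and −0.23 in WT1 and WT2 and of 0.20 and 0.20 in KO1 and KO2, a difference of 0.38 between the genotype means. Psmd5, a cap chaperone, went the other way in the same gate, with 0.18 and 0.26 in the WT libraries and −0.10 and −0.0094 in the KO libraries, a difference of −0.27. In the terminal effector gate Psmb7 had −0.041 and −0.12 against 0.013 and 0.069, a difference of 0.12, Psmc4, an ATPase, had 0.047 and 0.046 against −0.064 and −0.055, a difference of −0.11, and Psmd1, a base scaffold, −0.10 and −0.0097 against 0.030 and 0.016, a difference of 0.078. In the interferon gate Psmb6 had −0.11 and −0.13 against 0.044 and 0.0051, a difference of 0.14, and Psmb7 −0.019 and −0.097 against 0.021 and 0.16, a difference of 0.15. In the same gate the lid subunit Psmd11 had 0.22 and 0.031 against −0.14 and −0.021, a difference of −0.21, and the base scaffold Psmd2 0.015 and 0.0059 against −0.020 and −0.056, a difference of −0.048. None of these members passed the test of its gate over all 4 libraries. The ratios are of CPM, without the TMM scaling of the fits, and a sign near 0 can depend on that choice. In the terminal effector gate the median of all genes was −0.0058 with TMM and −0.053 with library totals. In the interferon gate it was −0.0034 and −0.032. The signs of the flagged ratios under TMM were not tested.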

How the results depend on the processing

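Between genotypes, 0 members were lower without the block and 12 with the replicate block. The other counts were 1 in DESeq2 with or without the block, 14 in T cell clusters only with the block, 9 at 5% mitochondrial UMIs, 10 at 800 genes per cell, 12 without cells over 3 times the median UMIs and 6 with thinned cells, all with the block. Without the block the count was also 0 with each library left out in turn, which does not bear on the 12; with the block, leaving out a library leaves no residual degrees of freedom. The median log2 fold change of −0.20 was −0.18 with library totals, −0.19 in T cell clusters with or without the block and −0.19 with thinned cells and the block, and −0.21 to −0.17 with a library left out. Summed shares kept their direction in all settings (−0.106 to −0.0621 with a library left out), and the ratio of immunoproteasome to constitutive catalytic subunits reversed to −0.049 outside the cycling gate and was 0.013 to 0.035 with a library left out. Psmb8 per Psmb5 reversed to 0.012 in the cycling gate alone. Psmc1 reversed to 0.0069 with thinned cells (0.0074 with the block), and Psmd8 to −0.062 without WT replicate 2 and −0.042 without Bcl3-/- replicate 1 (0.12 the highest with a library left out).

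In the cycling gate 5 members rose and 0 fell without the block, beside 1195 genes higher and 605 lower of 10242 tested. The median of 0.17 became 0.21 with library totals and 0.14 with no filter on low counts. At a threshold 1 UMI higher it was 0.22 and 28 members rose, and at 1 UMI lower 0.073 and 18. Psmd8 reversed to −0.018 with no filter and −0.00791 without WT replicate 2 (0.058 the highest with a library left out). In the memory gate 0 members fell without the block, 1 in DESeq2, 16 with no filter and 4 to 11 with a library left out. At the higher and lower thresholds 10 and 13 fell. The median of −0.098 was −0.14 with no filter, −0.17 at the higher threshold and −0.066 at the lower one. In this gate Psmc5 reversed to −0.028 with no filter, −0.034 and −0.014 at the higher and lower thresholds, and −0.051 and −0.064 without Bcl3-/- replicates 1 and 2 (0.083 the highest with a library left out). Psma6 reversed to −0.0052 and Psmd5 to −6.9222e-07 at the lower threshold.

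In the terminal effector gate 1 member rose at either threshold, 4 with cells of other types kept and 0 to 1 with a library left out. With library totals 9 members fell, beside 1218 of 10261 genes lower. The number that fell was 0 without the block, in DESeq2 and at either threshold, and 0 to 1 with a library left out. The median of −0.0088 was −0.056 with library totals and −0.032 with no filter, and reversed to 0.0024 at the higher threshold, 0.0034 without very deep cells, 0.018 with cells of other types kept, 0.00067 with clusters of other types left out and 0.0096 without Bcl3-/- replicate 2 (lowest −0.024). Psmb5 reversed to −0.042 with library totals, −0.014 with no filter, −0.032 at the lower threshold and −0.011 without WT replicate 1 (0.032 the highest), Psmb6 to −0.042 with library totals, −0.014 with no filter, −0.0094 with cells of other types kept, −0.00273 with their clusters left out and −0.027 without WT replicate 2 (0.040 the highest), and Psmb7 to −0.011 with library totals. In the interferon gate 1 member rose at the higher threshold, and 1 fell with library totals, no filter or clusters of other types left out, 2 with cells of other types kept and 0 to 1 with a library left out. Its median of 0.023 moved to −0.0059 with library totals, −0.0095 with no filter, −0.0012 at the lower threshold and −0.013 with cells of other types kept. Psmb5 reversed to 0.024 at the higher threshold, Psmb7 to −0.013 without Bcl3-/- replicate 2 (0.089 the highest), and at the lower threshold Psmd12 to 0.047 and Psma3 to −0.0036. The causes of these shifts were not tested. The interaction of cycling and genotype gave 0 members in every setting run, and the cluster shares moved by less than the spread between libraries. The UMI counts behind single members, from 737 for Psmd5 in KO1 upward, and 2 libraries a genotype limit what could be seen.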
